A study of Drosophila melanogaster with 2 samples.

Results

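The genes described here are the translation initiation factor genes of Drosophila melanogaster, chosen by name as the protein-coding genes of the Ensembl annotation whose symbol begins with eIF. There are 44 of them among 13968 protein-coding genes. They were set against ChIP-seq peaks of Sequoia, a zinc finger protein encoded by seq, in 2 libraries numbered as biological replicates of 1 group. Both came from whole embryos aged 0 to 24 h of the strain seq-GFP, which express Sequoia fused to enhanced GFP, and chromatin was sonicated and precipitated with an antibody against GFP. There was no second genotype, treatment or stage, and the control library used by the submitters was not analysed here. A collection over this age range mixes every embryonic tissue and stage, so binding in fewer cells and weaker binding per cell cannot be told apart. The peaks described were selected on measured values: presence in the submitters' conservative list, their signal and their irreproducible discovery rate (IDR). In lists made by setting replicate against replicate, the IDR is the estimated chance that a peak is not repeated between replicates. An IDR from a single replicate's own list does not measure this. A peak was counted at a gene's promoter when its summit was no more than 500 bp from any of the gene's transcription start sites (TSSs).

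Translation of most mRNAs starts when a small ribosomal subunit carrying eIF1, eIF1A, eIF3, eIF5 and a complex of eIF2 with initiator tRNA is brought to the mRNA cap and scans to a start codon. The cap is bound by eIF4E, which with the scaffold eIF4G and the helicase eIF4A forms eIF4F, while eIF2B reloads eIF2 with GTP, eIF5B joins the large subunit and eIF6 keeps free large subunits from joining too early. In early fly embryos, translation of maternal mRNAs is itself regulated, in part by 4EHP, a cap-binding protein that does not bind eIF4G. Most of these factors act in every growing cell, whereas Sequoia is known from the shaping of neurons.

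The DNA under 4 member summits and under 2 strong peaks beside members is shown first, because the results below turn on these places. Each stretch covers up to 50 bp either side of the summit on the plus strand of the Release 6 genome, from RefSeq, with fixed motif words in capitals. The 2 summits near eIF1 lie at chr3L:3222987-3223087 and chr3L:3223189-3223289, that of eIF2D at chr3R:29151896-29151996, and that of eIF3h at chr2L:5052427-5052527. The summit upstream of eIF4EHP lies at chr3R:24109141-24109241, and the summit between Ugalt and eIF2Bbeta at chrX:2703853-2703942, where bases of the Ugalt transcript were left out.
eIF1, peak nearer RpL28: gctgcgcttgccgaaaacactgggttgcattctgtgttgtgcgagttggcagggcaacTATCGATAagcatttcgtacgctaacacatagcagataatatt
eIF1, peak nearer eIF1: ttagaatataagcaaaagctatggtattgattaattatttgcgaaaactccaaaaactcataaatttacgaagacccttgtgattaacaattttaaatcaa
eIF2D: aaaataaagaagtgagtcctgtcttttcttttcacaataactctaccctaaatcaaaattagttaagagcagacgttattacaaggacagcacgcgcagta
eIF3h: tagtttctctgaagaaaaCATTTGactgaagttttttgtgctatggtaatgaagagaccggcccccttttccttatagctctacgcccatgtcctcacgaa
eIF4EHP, ranked list only: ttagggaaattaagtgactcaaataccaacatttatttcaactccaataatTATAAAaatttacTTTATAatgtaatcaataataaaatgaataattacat
Ugalt and eIF2Bbeta: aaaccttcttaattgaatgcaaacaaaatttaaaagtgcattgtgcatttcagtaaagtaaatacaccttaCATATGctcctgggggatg
The capitals mark TATCGATA, the element bound by DREF, in the first sequence, an E-box of the form CANNTG in eIF3h and in the Ugalt peak, and TATAAA read on each strand at eIF4EHP.

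Sequoia peaks stood at the promoters of 6 of the 44 initiation factor genes: eIF1, eIF2D, eIF3c, eIF3h, eIF5B and eIF6. This is 13.6% of the genes, with an exact 95% interval (Clopper-Pearson) of 5.17% to 27.4%, against 13.8% of all protein-coding genes, so the share is that of the background. In replicate 1's own list 7 members had a promoter peak (15.9%, against 14.3% of all genes), and in replicate 2's own list 5 had one (11.4%, against 10.1%). In the list from pooled replicates the number was 9 (20.5%, against 17.3%), with eIF2gamma, eIF3f1 and eIF4E1 added to the 6. The genes eIF3c, eIF3h, eIF5B and eIF6 had a promoter peak in all 4 lists, and 34 members had one in none, counts for which the share over all genes was not taken. These 4 are also the members with a peak in both replicates' own lists, 9.09% of the 44, against 8.26% of all genes. The intervals cover counting error over genes only, and read depth is unknown.

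**Figure D1:**
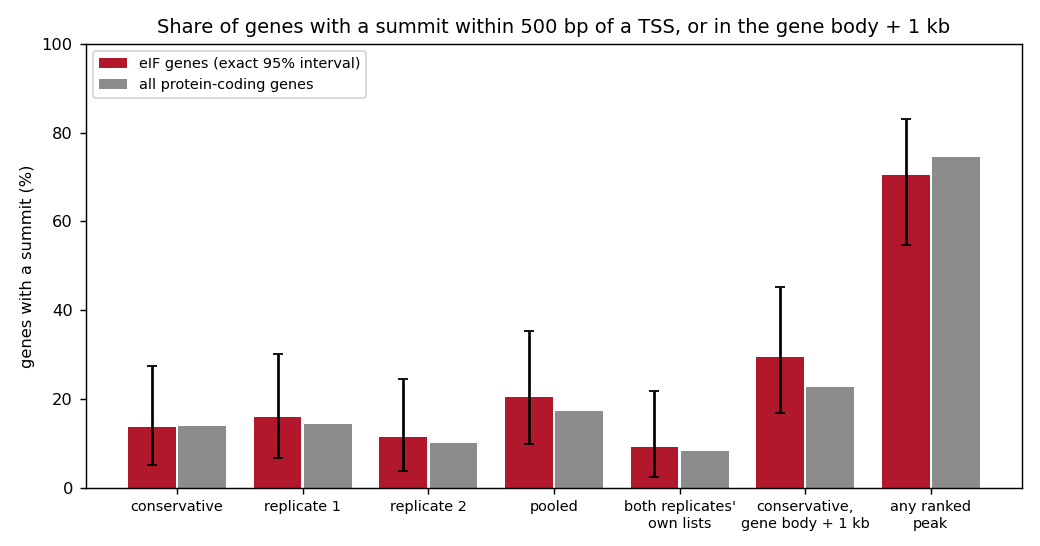
Share of genes (%) with a summit in each peak list, for the 44 eIF genes (red, with exact 95% intervals) and all 13968 protein-coding genes (grey). In each of the 7 comparisons the grey bar lies within the interval of the red one, including 13.6% against 13.8% for the conservative list.

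The strongest promoter peak of the group, and one of the strongest of the whole list, belonged to eIF6, which holds the large ribosomal subunit apart from the small one and takes part in making it. The peak covers chr2R:23850262-23850558, with its summit 126 bp upstream of the eIF6 TSS. It has a signal of 1009.6, the value the submitters give for the peak, at rank 13 of 4100. Its IDR is at the lowest value the files give, 1e-05. Replicate 1 had 573 there and replicate 2 had 434, at ranks 10 and 30 of their ranked lists. Both replicates thus place it near the top, and only 9 protein-coding genes have a stronger peak within 500 bp of a TSS in the joint ranked list. eIF6 lies inside an intron of ytr, on the same strand, and the summit lies within that intron and within an exon of the antisense RNA asRNA:CR45928, whose TSS is also within 500 bp. The files give no means to assign the peak among these transcripts.

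Next came eIF5B, the GTPase that joins the ribosomal subunits, with a signal of 205 at rank 797 and an IDR of 4.33e-05 (chr3L:3460553-3460942). Replicate 1 had 105 and replicate 2 had 117. The summit is in the 5′ UTR, 229 bp into the gene from its first TSS and 145 bp upstream of the nearest other TSS of the gene, and no other protein-coding gene starts within 500 bp. eIF5B has a second conservative peak in an intron, 28108 bp from its start, with a signal of 166 (77.4 and 86.9 in replicates 1 and 2). At eIF5B the replicates differ little at either peak.

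Of the 16 genes for the subunits of eIF3, the scaffold of the small-subunit complex, 2 had a promoter peak, against 13.8% of all genes. eIF3h had a signal of 179 at rank 1012 (IDR 0.000104, chr2L:5052282-5052671), with 108 in replicate 1 and 77.5 in replicate 2. Its summit lies in an intron, 303 bp past the nearest TSS, and the gene senju starts within 500 bp on the other strand. The core subunit gene eIF3c had 168 at rank 1138 (IDR 0.000426, chr2R:17665498-17665887), with 59.5 in replicate 1 and 106 in replicate 2. This summit is 15 bp past the TSS, in the 5′ UTR, with no other protein-coding TSS near. The 2 peaks are alike in signal, but replicate 1 was the higher at eIF3h and the lower at eIF3c.

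The weakest promoter peaks were at eIF1 and eIF2D. eIF1, which guards the choice of start codon, is transcribed away from RpL28, a gene for a protein of the large subunit, and 2 overlapping peaks lie between them. The stronger (118, rank 2016, IDR 0.00134, chr3L:3222842-3223231) has its summit 304 bp from the eIF1 TSS and 77 bp from that of RpL28. Its replicate values were 48.3 and 76.8, and the replicate 1 peak, with an IDR of 0.0386, was not in that replicate's own thresholded list. The weaker (79.3, rank 3467, IDR 0.00798, chr3L:3223044-3223433) has its summit 102 bp upstream of eIF1, and the same replicate 1 peak of 48.3 overlaps it, with 31.4 in replicate 2. Thus the stronger summit is nearer to the ribosomal protein gene than to eIF1. eIF2D, a factor that can bring tRNA to the ribosome without eIF2, had 93.7 at rank 2834 (IDR 0.00306, chr3R:29151751-29152140), 152 bp upstream of its TSS, with 44.5 in replicate 1 and 51.4 in replicate 2. It was in neither replicate's own thresholded list, and in their ranked lists its IDR was 0.0268 and 0.806. Among the thresholded lists it was therefore held only by those made from both libraries together.

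**Figure D2:**
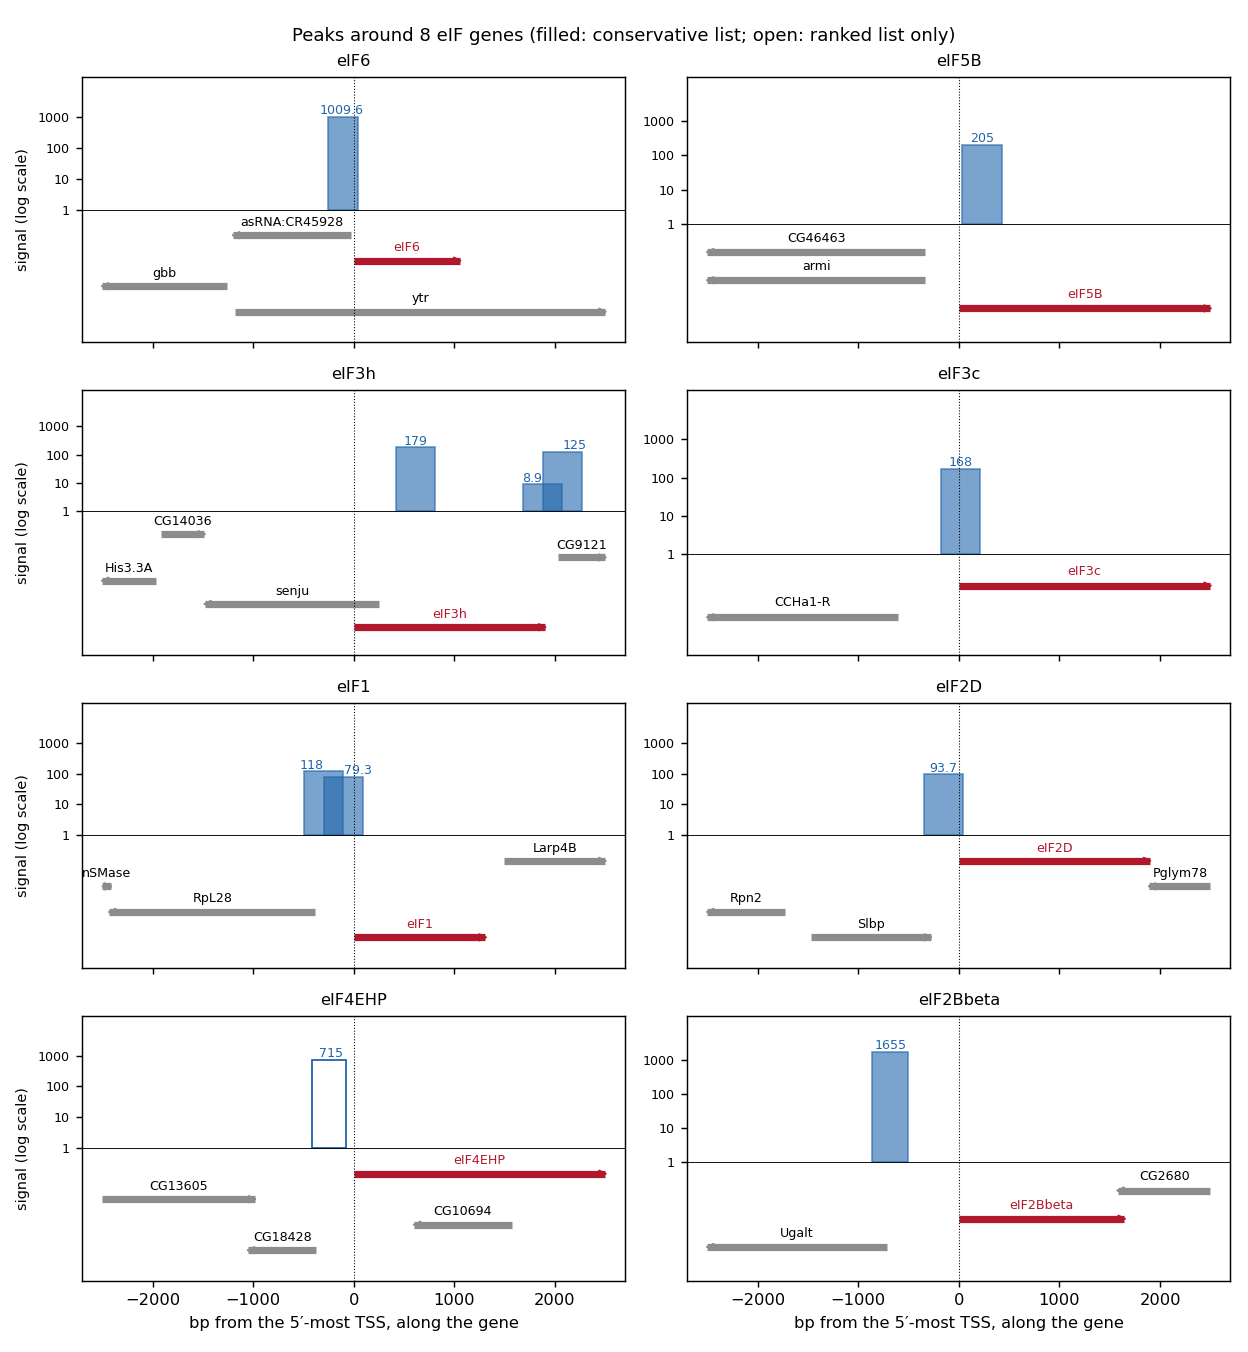
Peaks (blue boxes, height on a log scale of the submitters' signal, printed above each) and genes (bars with arrows, the named gene in red) around 8 eIF genes, by distance in bp from the gene's first TSS. Filled boxes are conservative peaks. The open box at eIF4EHP, at 715, is in the ranked list only, and the eIF2Bbeta panel holds the strongest conservative peak, at 1655, next to Ugalt.

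The strongest promoter peaks of the 6 genes had a median signal of 174, against 129 for 1700 conservative peaks at protein-coding promoters, and 4 of the 6 lay above that value. The 1700 hold every such peak, weaker ones of overlapping pairs included, whereas 1 was taken per member, so the medians are not strictly alike. The base-2 logarithm of the ratio of replicate 1 to replicate 2 was 0.48 at eIF3h and 0.40 at eIF6, and −0.16 at eIF5B, −0.21 at eIF2D, −0.67 at eIF1 and −0.83 at eIF3c. Its median over the 6 was −0.18, against 0.22 over 1689 promoter peaks with a value in both replicates. Of those peaks 80% lay between −0.47 and 1.03, and eIF1 and eIF3c lay below this range, on the side of replicate 2. Of the 6 peaks 4 were in replicate 1's thresholded list and 5 in that of replicate 2, against 79.9% and 64.6% of all promoter peaks. No rescaling between the libraries is stated in the sources used here, so only the position among other peaks can be read.

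**Figure D3:**
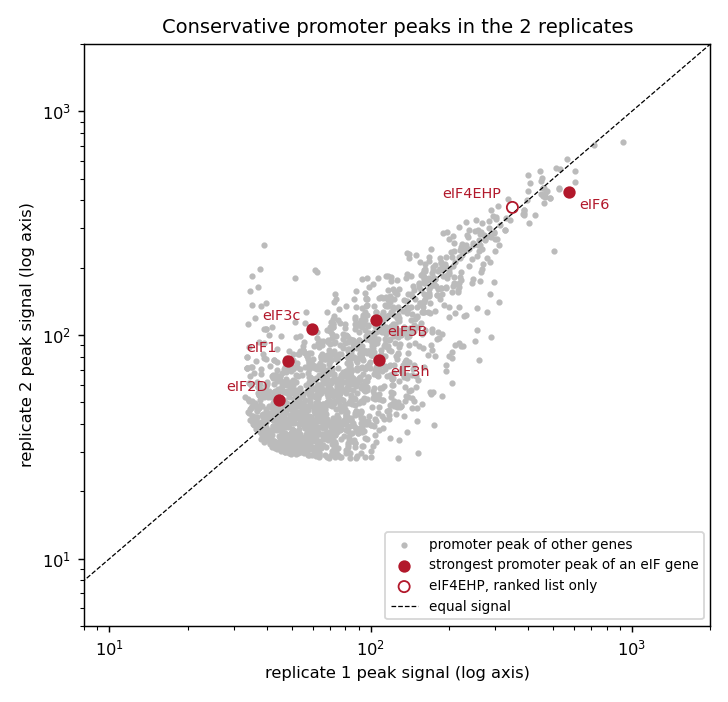
Signal of conservative promoter peaks in replicate 1 (x axis) and replicate 2 (y axis), both on log axes, with the strongest promoter peak of each eIF gene in red and the dashed line at equal signal. eIF6 (573 and 434) and eIF4EHP (349 and 372, open, from the ranked list) lie at the upper end near the line, whereas eIF1 and eIF3c lie above it.

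A peak stronger than all of these except that of eIF6 lies at eIF4EHP, the gene for the cap-binding repressor 4EHP, but it is missing from each of the 4 thresholded lists. In the joint ranked list it has a signal of 715 at rank 57 of 120533 and an IDR of 1e-05, with its summit 231 bp upstream of the eIF4EHP TSS (chr3R:24109036-24109377). Replicate 1 had 349 and replicate 2 had 372, so the ranked lists of both replicates hold it. It was 1 of 113 ranked peaks that meet the IDR limit of 0.01 but that the conservative list does not hold, and the step that removed them is not given in the sources used here. Only 51 genes have a stronger ranked promoter peak. CG18428 is transcribed away from eIF4EHP, and the summit is 145 bp from its TSS, nearer than to that of eIF4EHP. eIF4EHP also has 2 conservative peaks in its introns, at 206 (rank 791, with 122 and 97.2 in replicates 1 and 2) and 110.4 (rank 2254, with 62.2 and 47.4), 9766 and 39899 bp from its start.

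The remaining member beside a very strong peak was eIF2Bbeta, a regulatory subunit gene of the exchange factor eIF2B. Its TSS is 679 bp from the strongest peak of the conservative list, at 1655, with 924 in replicate 1 and 730.5 in replicate 2 (chrX:2703708-2704062). That summit is 40 bp from the TSS of Ugalt, which encodes a transporter of UDP-galactose and is transcribed away from eIF2Bbeta. It therefore counts for eIF2Bbeta only within 1 kb of the gene and not at the promoter. Just inside the 500 bp window were the summits at 304 bp for eIF1 and 303 bp for eIF3h, and just outside it, after eIF2Bbeta, came eIF4G2 at 1098 bp, eIF3d1 at 1281 bp and eIF2Bgamma at 1291 bp.

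Counting the gene body and 1 kb on either side, 13 of the 44 genes (29.5%, exact 95% interval 16.8% to 45.2%) had a conservative peak, against 22.7% of all protein-coding genes, which lies within the interval. Beyond the 6 with a promoter peak these were 7 genes. In 5 of them the peak is at the start of a neighbour: eIF1A (95, 466 bp past its end, next to CG14312 and CG8064), eIF2A (183, 488 bp past its end, at CG32448), eIF2beta (285, 866 bp past its end, at ver and Gcn5), eIF3g1 (105, 277 bp past its end, at Smyd3) and eIF2Bbeta. In eIF4EHP and eIF4G2 the peaks are in the genes' own introns, and the one in eIF4G2 (108, with 53.4 and 56.2 in replicates 1 and 2) also lies inside CG33111 and CG34355. Thus most of the added peaks of these 7 genes stand at other genes' promoters, but the same share over all genes was not taken. By length, 4 of the 8 members over 5 kb had a peak in the body or flanks, against 43.1% of all such genes. Between 2 and 5 kb 2 of the 13 had one, against 21.5%, and under 2 kb 7 of the 23, against 12.4%. Of these 7, eIF2Bbeta, eIF2beta and eIF3g1 are counted only through a peak at a neighbour's start. The length classes were chosen after the data were seen, so these shares are a description only. With no flank the number of eIF genes with a peak was 5 (11.4%, against 11.2% of all genes).

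Most initiation factor genes had only a weak peak or none. In the joint ranked list, which holds summits at any IDR, 31 members (70.5%) had one 500 bp or less from a TSS, against 74.6% of all genes. With a missing peak counted as 0, the median of the strongest signal was 37.7 over the members and 29.1 over all genes, and 24 of the 44 were above 29.1. The median was 28 against 18.5 in replicate 1, but 9.3 against 13.8 in replicate 2. The members thus lay above the middle of all genes in 1 replicate and below it in the other. In replicate 1's ranked list 35 members had a summit, and 24 had one in replicate 2's. All 24 also had one in replicate 1, 11 had one in replicate 1 only (25%, against 17.2% of all genes) and none in replicate 2 only (against 10.7%). The other 9 had one in neither (20.5%, against 16.1%). Among the 24 with one in both, replicate 1 was the higher in 16 (66.7%, against 65.4% of all genes with both).

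**Figure D4:**
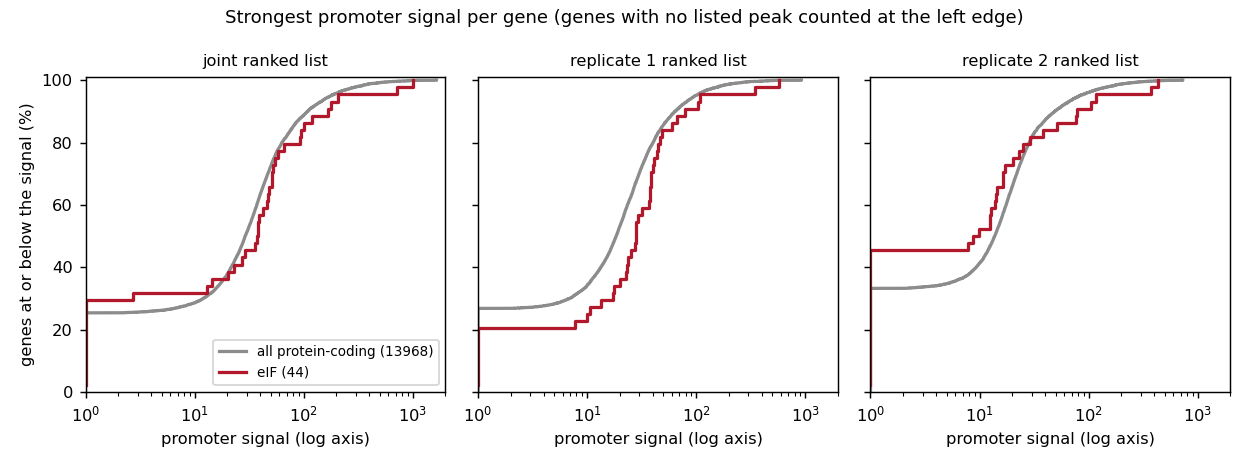
Cumulative share of genes (%) by the signal of their strongest peak within 500 bp of a TSS (log axis), for the 44 eIF genes (red) and all protein-coding genes (grey), in the joint and replicate ranked lists. The red curve lies to the right of the grey over most of its range in replicate 1 (medians 28 and 18.5) and to the left at the middle in replicate 2 (medians 9.3 and 13.8).

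Taken by factor, eIF2 itself, which carries the initiator tRNA, had no promoter peak in the conservative list for its 3 subunit genes. eIF2gamma, the GTP-binding subunit, had 65.7 in the joint ranked list, with 37.7 in replicate 1 and 28.8 in replicate 2, and its IDR of 0.0169 lies just past the limit. eIF2beta had 48.6 and eIF2alpha, the subunit phosphorylated under stress, had 23.2. The 5 eIF2B genes had none either: eIF2Balpha reached 51.7 (IDR 0.0528, with 28.2 and 25 in replicates 1 and 2) and eIF2Bbeta had no listed promoter peak. eIF2Bepsilon had 27, eIF2Bdelta 20.2 and eIF2Bgamma 2.73. Among the eIF2 and eIF2B genes no promoter peak met the limit in the conservative list or in either replicate's own list, and that of eIF2gamma met it in the pooled list. So few genes do not set these factors apart from all genes, of which 13.8% had a conservative promoter peak.

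Besides eIF3c and eIF3h, the eIF3 gene nearest to the IDR limit was eIF3e, at 42 with an IDR of 0.0124. Its peak had 38.1 in replicate 1 and overlapped none in replicate 2's own ranked list. eIF3a, the largest core subunit, had 55.1 (IDR 0.0217, with 29.2 and 38.3). eIF3f1 had a higher signal, 93.3, but an IDR of 0.415, and its replicates gave 67.2 and 17.2. eIF3k had 57.7, eIF3b 51.9, eIF3l 51.5, eIF3m 38.1 and eIF3i 37.4. In the joint ranked list the eIF3 genes therefore range from no peak (eIF3g1, eIF3g2 and eIF3j) to 179, with a median of 40 when these count as 0, and eIF3j had 22.7 in replicate 1 only. In the 3 subunits with a second gene, the level was 93.3 at eIF3f1 and 29 at eIF3f2, 36.1 at eIF3d1 and 13.1 at eIF3d2, and none at eIF3g1 and eIF3g2.

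None of the 13 eIF4 genes had a promoter peak in the conservative list, against 13.8% of all genes, and so small a number of genes does not set them apart. Of the 7 genes for cap-binding proteins, eIF4E1, the main one, had 101.5 with an IDR of 0.0486 (78.4 in replicate 1 and 22.9 in replicate 2), and eIF4E6 had 46.5 (38.4 in replicate 1 only). eIF4E3, eIF4E4, eIF4E5 and eIF4E7 had no summit within 500 bp of a TSS in the joint ranked list or in that of either replicate. The cap-binding genes thus include eIF4EHP, whose strong peak lies nearer to CG18428, and 4 of the 9 members with no promoter summit in these 3 lists. eIF4A, the helicase, had 38.8 (32 and 20.5 in replicates 1 and 2). eIF4H1 had 38 and eIF4H2 14.4, and eIF4B, which aids the helicase, and the scaffold genes eIF4G1 and eIF4G2 had none in the joint list. The conservative summit nearest to eIF4B was 4948487 bp from its TSS, so that gene lies in a long stretch without conservative peaks. In replicate 1 alone eIF4G2 had 25.3. eIF5, which prompts eIF2 to hydrolyse GTP, had none in the joint list and 10.7 in replicate 1. Of the last 2 members, eIF1A works with eIF1 in scanning. Its peak had 43.4 in replicate 1, overlapped none in replicate 2's own ranked list, and had 47.2 in the joint list. eIF2A had none there, but 47.2 in replicate 1, whose own thresholded list holds that peak.

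**Figure D5:**
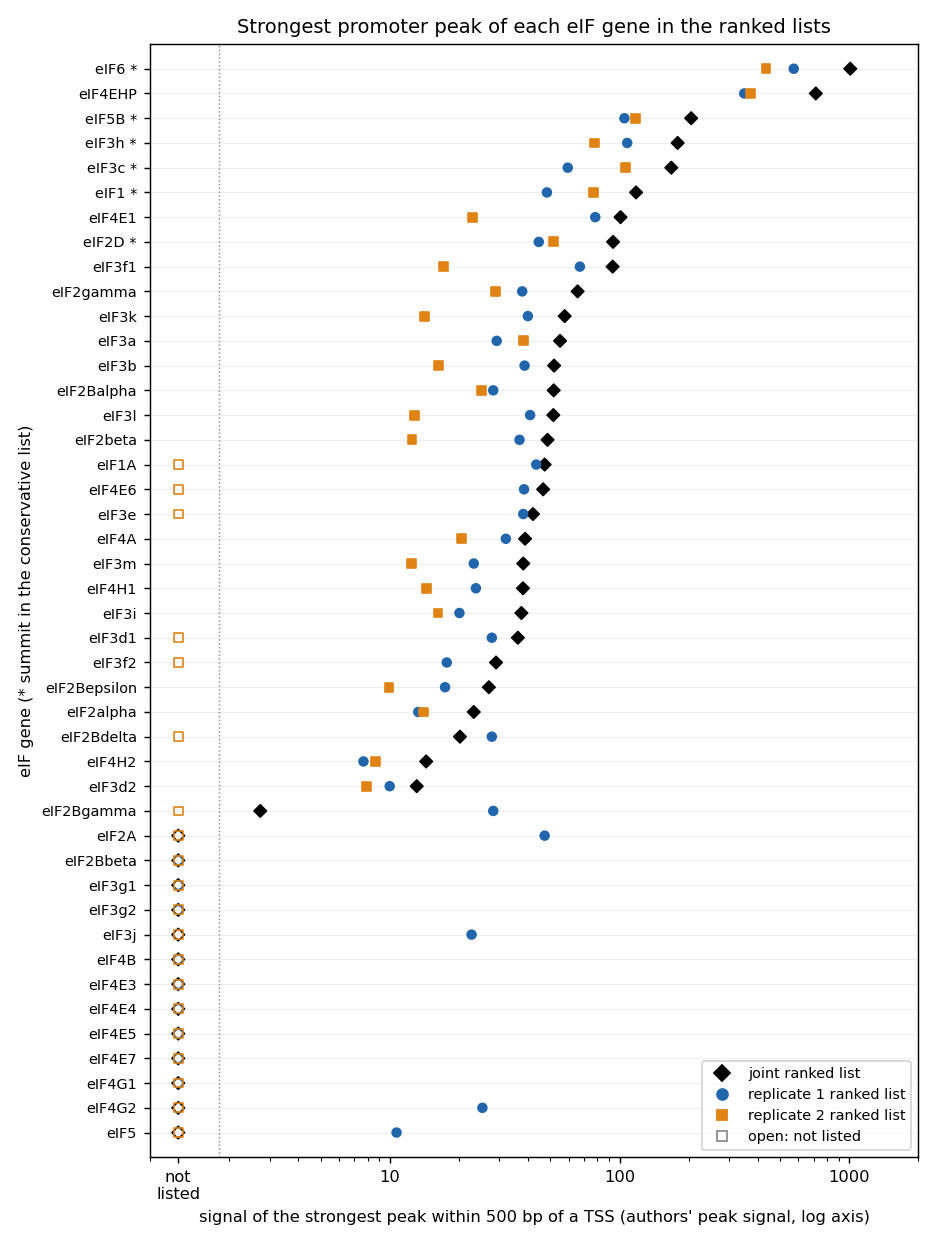
Signal (log axis) of the strongest peak within 500 bp of a TSS for each of the 44 eIF genes, in the joint ranked list (diamonds), replicate 1 (circles) and replicate 2 (squares), with open symbols at the left where no peak is listed and a star for the 6 genes with a summit in the conservative list. eIF6 (1009.6) and eIF4EHP (715) stand far to the right of eIF5B (205), and the 9 genes with open symbols only have no summit in these 3 lists.

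The order of the levels from the top was eIF6 (1009.6), eIF4EHP (715), eIF5B (205), eIF3h (179), eIF3c (168), eIF1 (118) and eIF4E1 (101.5). In both replicates eIF6 exceeded eIF4EHP, and both exceeded every other member. From eIF5B to eIF1 the order was not kept: replicate 1 had eIF3h (108) above eIF5B (105), and replicate 2 had eIF3c (106) above eIF3h (77.5). With 2 libraries, neighbours in that stretch are not separated.

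The member summits were searched for 7 fixed motif words. Of the 7 conservative promoter summits, of which the 2 at eIF1 belong to overlapping peaks, within 50 bp either side and on both strands, 1 held TATCGATA (the eIF1 peak nearer RpL28, against 1.18% of 1693 other promoter summits), 1 held TATAAA (eIF6, against 19.6%) and 2 held CANNTG (eIF3c and eIF3h, against 35.7%). None held GAGAGA (7.86% of the others), CAGCTG (4.61%), CAGGTG (2.54%) or ACAGTG (6.97%), of which CAGCTG and CAGGTG are also counted as CANNTG. In the sequences above, bases G and C make up 46.5% at the eIF1 summit nearer RpL28, 25.7% at the other, 35.6% at eIF2D, 42.6% at eIF3h and 18.8% at eIF4EHP, against a median of 36.6% at all promoter summits, of which 80% lie between 22.8% and 55.4%. Upstream summits made up 4 of 6 (66.7%), against 82.2% of all genes with a promoter peak.

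A feature of the genes themselves was the TCT initiator, a start-site element that in flies marks ribosomal protein genes and others of the translation machinery. It was sought on the coding strand as CTTTC or CTTTT preceded by C or T, with the first C of these words within 10 bp of a TSS. It was found at 8 eIF genes (18.2%: eIF1A, eIF3c, eIF3e, eIF3f1, eIF3g1, eIF3i, eIF3m and eIF4A), at 4.09% of all protein-coding genes and at 72 of 85 genes named RpL or RpS. Of the 8, 1 had a conservative promoter peak (eIF3c), and 24.3% of all 571 genes with the element had one. Among the 72 genes named RpL or RpS with the element, 38 had one. So few members do not set the 8 apart. The letters were not found at eIF6, eIF5B or eIF3h, nor at most members. The signal of eIF3c (168) is close to that of eIF3h (179), so no order of signal by this element can be read.

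The rest of the translation machinery was taken as 68 genes in 4 lists, of which 14 (20.6%) had a conservative promoter peak, against the 13.8% of all genes. One of the 14, pelo, was chosen after the data were seen, so this share is a description only. Factors for elongation, release and rescue had 4 of 13. These were eEF1gamma, part of the factor that reloads eEF1A (287, with 158 and 136 in replicates 1 and 2), the elongation factor gene eEF5 (138, with 87.1 and 48.5), the translocase gene eEF2 (136, with 85.7 and 56.6) and the ribosome rescue gene pelo (99.9, with 59 and 42). Of 20 aminoacyl-tRNA synthetases 4 had one, led by GluProRS (264, with 92.5 and 178), IleRS (187, with 71.8 and 118) and ThrRS (185, with 114 and 72.6), each with another gene's TSS within 500 bp.

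Of 26 regulators of initiation and related factors under other symbols, 5 had a conservative promoter peak. They were led by Thor, the 4E-BP that holds eIF4E away from eIF4G (214, with 131 and 69.3), larp, which binds mRNAs of the translation machinery (154, with 68.9 and 81.3), and Rheb, the GTPase that activates TOR (98.7, with 53.1 and 45.4). The Rheb summit is also within 500 bp of the TSS of CG2931. Of 9 mitochondrial factors 1 had one, mEFTu1 (84.9, with 45.7 and 36.4). None of these 14 reached the signal of eIF6 or of the ranked eIF4EHP peak, and the initiation factor genes' own share of 13.6% lay below the 20.6% of these genes as a whole, a difference that was not tested.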

How the data were processed

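Both kinds of peak list made by the authors were used, on dm6 per the labels: thresholded lists (conservative between replicates, pooled, and 1 for each replicate) and the ranked lists they come from. The signal of each peak is the value deposited by the authors and ranks peaks within a list. The authors' score of thresholded peaks was used only to check the IDR limit. The IDR was deposited by the authors as −log10, capped at 5. The peak caller, aligner and read depth are not given in the sources used here, and 8 further columns of the ranked lists were not used.

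Summits were set against TSSs of the Ensembl BDGP6.54 annotation, release 115. A replicate's value at a peak is that of the overlapping peak of its ranked list with the nearest summit. No peak in a replicate means only that its own ranked list holds none there. Shares have exact (Clopper-Pearson) intervals, and with 1 group no test was made. Motifs were read from the Release 6 RefSeq genome. Figures were drawn with matplotlib 3.10.9 and values computed with scipy 1.17.1, pandas 2.3.3 and numpy 2.4.6 under Python 3.11.15. The counting was tested on simulated peaks.

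The members, lists, motifs and alternatives were chosen with earlier results of these data known. Every eIF gene is accounted for. Values are given in full for those with a conservative promoter summit, those without one are taken by their strongest ranked peak where there is one, and the 3 genes with the strongest promoter peak are named from each other list. The TCT initiator, the gene length classes, pelo, and the setting that puts ranked peaks back were chosen after seeing the data. Replicate numbers come from the labels, which call the replicates biological. Alternatives changed the TSS window, the TSS used, the list, the IDR limit, the flank and the peak taken per gene.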

Additional observations from a re-analysis of the deposited data

How the results depend on the processing

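The number of eIF genes with a promoter peak stayed between 4 and 9 under 9 alternatives, against 6 in the conservative list. The 4 at an IDR of 0.001 (9.09%, against 7.95% of all genes) were eIF3c, eIF3h, eIF5B and eIF6. The 5 within 200 bp compare with 9.58% of all genes, the 7 within 1000 bp with 16.9%, and 7 were counted when ranked peaks that meet the limit were put back, which adds eIF4EHP. The gene-body count of 13 fell to 5 with no flank (11.4%, against 11.2% of all genes) and to 8 at an IDR of 0.001 (18.2%, against 13.7%). At that IDR the upstream summits fell from 4 to 2, out of fewer genes, and the other translation genes from 14 to 8. With each summit given to the nearest gene only, 10 of those 68 translation genes had one, against 10.6% of all genes. The median signal of 174 was 118 in the pooled list and ranged from 78.4 to 106 when a replicate was left out, but lists are not on 1 scale. Summits shared with the TSS of another protein-coding gene numbered 2, and 1 within 200 bp or 5 within 1000 bp. The same share over all promoter summits was not taken, so these counts are a description only. The median log2 replicate ratio of −0.18 was 0.12 over the 4 genes in both thresholded lists. No paired analysis was possible because there was only 1 group. Depth is unknown, so a missing peak does not show an absence of binding.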

Other observations

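At 3 places, genes of the group have a pair of overlapping conservative peaks about 200 bp apart, each pair overlapped by the same replicate 1 peak. The summits are 202 bp apart at eIF1 (118 and 79.3), 201 bp at the end of eIF3h (125 and 8.9) and 208 bp past eIF1A (95 and 35.1). Such pairs numbered 292 in the whole conservative list, with a median distance of 203 bp, a median of 118 for the stronger and of 19.2 for the weaker peak. Of 282 conservative peaks with a signal under 60, 246 were the weaker of such a pair. The weaker peaks at eIF3h and eIF1A carry the top score of 1000, whereas the one at eIF1 has 871.

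Among the 25 members with a peak within 500 bp of a TSS in the joint ranked list and none in the conservative list, 16 (64%) had their summit downstream of the TSS, against 53.5% of 8493 such genes. Of the 25, 14 (56%) lay 80 to 240 bp downstream, against 18.7%, among them eIF4E1 (127 bp), eIF4A (100 bp) and 9 eIF3 genes. This range was chosen after the members' values were seen, so the gap between these shares cannot be read as a result. The median position of the 25 was 119 bp downstream, against 28 bp for all such genes. Apart from eIF4EHP, the members' peaks did not meet the IDR limit (0.0124 to 0.832). Of these 24, 10 had no overlapping peak in replicate 2's own ranked list, which does not show that the library lacked signal there. The joint peak of eIF4H2 overlapped none in either replicate's ranked list.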
